A study of Mus musculus with 77 samples.

Results

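Macrophages sorted from 7 mouse organs (heart, lung, liver, spleen, kidney, gut and muscle) were set against 4 populations of CD11b/Ly6C cells: Ly6C-low and Ly6C-high cells of the spleen, and Ly6C-low and Ly6C-high cells of the bone marrow. These 11 libraries were chosen by their labels from the 24 miRNA libraries with numbered titles, out of 36 miRNA libraries and 77 samples in the series. The series profiled microglia beside other immune and neural cells. Each library is 1 labelled population of C57BL/6 mice, with no genotype change or treatment given in its labels. RNA came from sorted cells and was counted with the NanoString nCounter mouse miRNA assay, which counts fluorescent barcodes bound to single miRNA molecules and does not amplify. The comparison ran over the 566 mouse miRNA probes, and 33 viral and 4 mRNA probes were left out. Their labels give no age, no number of animals, no surface markers for the macrophage sorts and no division into separate animals. The spread within a side is therefore between organs or between cell subsets, and it may be partly technical. Each p-value measures only the spread between the samples in its test. For limma these also include microglia and lymphocyte libraries. The labels of the 4 miRNA populations give CD11b/Ly6C and no cell name, while the samples of like name on the gene panel of the series are called monocytes.

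Ly6C-high monocytes leave the bone marrow, enter inflamed tissue and can become macrophages there, and Ly6C-low monocytes patrol vessels. Most resident macrophages of the organs are instead seeded before birth and renew themselves locally, with macrophages of the gut and heart replaced in part by monocytes. A miRNA is a short RNA that guides Argonaute to messenger RNAs pairing with its seed, bases 2 to 8 from its 5′ end, and lowers their output. miR-223 is a miRNA of the granulocyte and monocyte lineage and restrains granulocyte production and activation in mice. miR-126-3p, made from an intron of Egfl7, is abundant in endothelium and acts there on vascular signalling.

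The mature sequences below belong to the miRNAs on which the comparison turns, and they are shown because several of them share a seed. They are those of RefSeq (GRCm38.p6), where all 17 probes looked up were found. Letters run 5′ to 3′ and the seed is in capitals. The first 4 are single-seed miRNAs that were lower in macrophages.
mmu-miR-223-3p: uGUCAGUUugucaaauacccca
mmu-miR-148a-3p: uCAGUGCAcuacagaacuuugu
mmu-miR-142a-3p: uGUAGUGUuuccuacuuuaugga
mmu-miR-340-5p: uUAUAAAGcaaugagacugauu
The miR-15/16 members share the seed AGCAGCA.
mmu-miR-15a-5p: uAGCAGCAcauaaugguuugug
mmu-miR-15b-5p: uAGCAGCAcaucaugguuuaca
mmu-miR-16-5p: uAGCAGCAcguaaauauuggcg
The miR-17 members share the seed AAAGUGC, while miR-19a and miR-25 come from the same clusters with seeds of their own.
mmu-miR-17-5p: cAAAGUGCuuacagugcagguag
mmu-miR-20a-5p: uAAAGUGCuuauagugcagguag
mmu-miR-93-5p: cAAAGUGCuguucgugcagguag
mmu-miR-106b-5p: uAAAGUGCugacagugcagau
mmu-miR-19a-3p: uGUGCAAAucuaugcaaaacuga
mmu-miR-25-3p: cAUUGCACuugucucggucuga
Of the miRNAs higher in macrophages, miR-126-3p stands alone and the miR-125 pair shares the seed CCCUGAG.
mmu-miR-126a-3p: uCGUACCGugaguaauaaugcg
mmu-miR-125a-5p: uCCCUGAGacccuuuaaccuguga
mmu-miR-125b-5p: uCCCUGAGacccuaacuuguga

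In GRCm38.p6 the mature miR-223 lies at chrX:96242884-96242905 (plus strand) and miR-126-3p at chr2:26591402-26591423 (plus strand). Some of these miRNAs are neighbours in the genome. miR-15b starts 143 bases from 1 copy of miR-16 on chromosome 3, and miR-15a starts 139 bases from the other copy on chromosome 14. miR-17 and miR-20a start 499 bases apart on chromosome 14, with miR-19a between them, and miR-25 and miR-106b start 455 bases apart on chromosome 5, with miR-93 between them. Neighbours of this kind can be cut from 1 primary transcript, so their values may not be independent.

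The libraries of the 2 sides differed in depth. Each deposited value is a whole number of barcode counts times a factor of its library, so that the counts could be recovered. Macrophage libraries held 5849 counts in kidney, 7148 in lung, 3407 in muscle, 1741 in liver, 4285 in heart, 3408 in gut and 4399 in spleen. The CD11b/Ly6C libraries held 11730 counts in Ly6C-low spleen, 70672 in Ly6C-low bone marrow, 5283 in Ly6C-high spleen and 18583 in Ly6C-high bone marrow. Kidney and lung macrophages were thus the only macrophage libraries deeper than the shallowest CD11b/Ly6C library. Mean log2 depth differed by -2.08 (macrophages minus CD11b/Ly6C cells, two-sided exact permutation test over 330 regroupings, p = 0.00909). After normalisation a single count was worth 1.72 to 8.53 in macrophages and 0.412 to 2.69 in CD11b/Ly6C cells, and the lowest count in every library was 1. The background limit of a library, the mean of its viral probes plus 2 SD, was 7.31 to 38.0 in macrophages and 3.46 to 12.1 in CD11b/Ly6C cells. Between 62 and 151 mouse miRNAs lay above it in macrophages, against 103 to 182 in CD11b/Ly6C cells. All 33 viral probes, whose targets mouse cells lack, were higher in macrophages after normalisation, with a median log2 difference of 0.44 (0.21 to 1.02). Positive differences of this size are therefore also found for probes without a target.

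Values were compared as log2(value + 10) with limma, over the 132 miRNAs above 20 in at least 4 of the 22 numbered libraries of replicated groups, and a call was an adjusted p under 0.05. Adding 10 shrinks the log2 ratio of low values. The minimum is a normalised value, so it stands for fewer counts in shallow libraries. It could be passed through macrophages alone: miR-126-3p stayed under 20 in every other group of the fit. The shares called are therefore shares of miRNAs that were not chosen independently of the sides. limma called 62 of 132 miRNAs (47.0%), 45 higher (34.1%) and 17 lower (12.9%) in macrophages. The median log2 difference over all 132 was 0.66, and over the 434 untested miRNAs it was 0.50, so each positive difference below should be read against these values and the 0.44 of the viral probes. Adjusted p ran from 1.4e-05 to 0.0473 for the higher calls and from 8.2e-06 to 0.0452 for the lower calls. The lower calls rested on abundant miRNAs: their median count had a median of 130 in CD11b/Ly6C cells against 4.00 in macrophages, and all 17 were above the background limit in all 4 CD11b/Ly6C libraries. The higher calls rested on few counts. Their median count had a median of 6.00 in macrophages and 3.50 in CD11b/Ly6C cells, and 38 of 45 had a median of 10 counts or fewer in macrophages. Since depth moved with the sides, differences with depth as a covariate are given below beside those as deposited. The covariate was 1 slope per miRNA over all 22 libraries of the fit, so microglia and lymphocytes also set it.

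**Figure D1:**
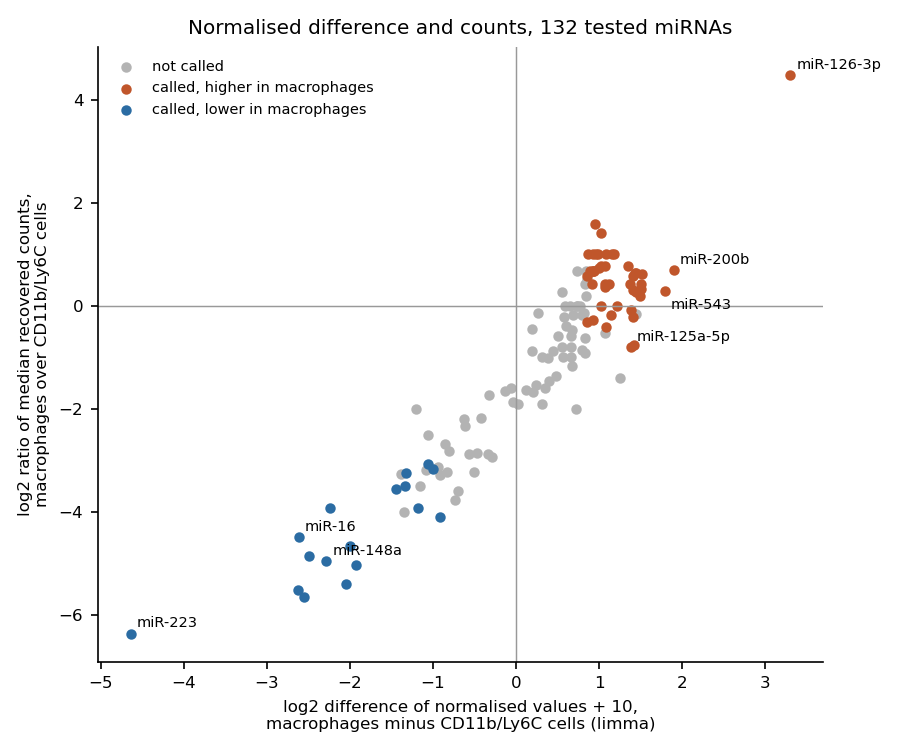
Each point is 1 of the 132 tested miRNAs: the horizontal axis gives the log2 difference of normalised values + 10 (macrophages minus CD11b/Ly6C cells, limma), the vertical axis the log2 ratio of the median recovered counts, and colours mark the 45 higher and 17 lower calls. miR-126-3p stands alone at the upper right with a difference of 3.30, miR-223 at the lower left with -4.64, and most of the other higher calls sit close to a count ratio of 1 (0 on the log2 axis).

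miR-223 differed most. Its normalised values in macrophages were 342 in kidney, 888 in lung, 16.8 in muscle, 76.8 in liver, 130 in heart, 30.7 in gut and 406 in spleen. In CD11b/Ly6C cells they were 2185 in Ly6C-low spleen, 11442 in Ly6C-low bone marrow, 1762 in Ly6C-high spleen and 4423 in Ly6C-high bone marrow. The groups did not overlap, bone marrow stood above spleen in both Ly6C classes, and muscle and gut macrophages were below their background limits. The means were 270 ± 312 (SD, n = 7) and 4953 ± 4481 (SD, n = 4), and the log2 difference was -4.64 ± 0.74 (SE, limma, adjusted p = 8.2e-06). miR-223 took 14.0% to 50.9% of all mouse miRNA counts in the CD11b/Ly6C libraries and 0.0928% to 8.19% in macrophages. The call held in all 30 alternative settings. The difference was -2.74 with the 6 libraries of 5000 counts or more, and -4.47 with depth as a covariate (limma, adjusted p = 0.0426 and 0.000634). The single neutrophil and dendritic cell libraries held 326 and 373, within the range of the organ macrophages and under all 4 CD11b/Ly6C libraries. Fewer cells that carry a miRNA and less of it per cell cannot be told apart in these bulk samples.

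**Figure D2:**
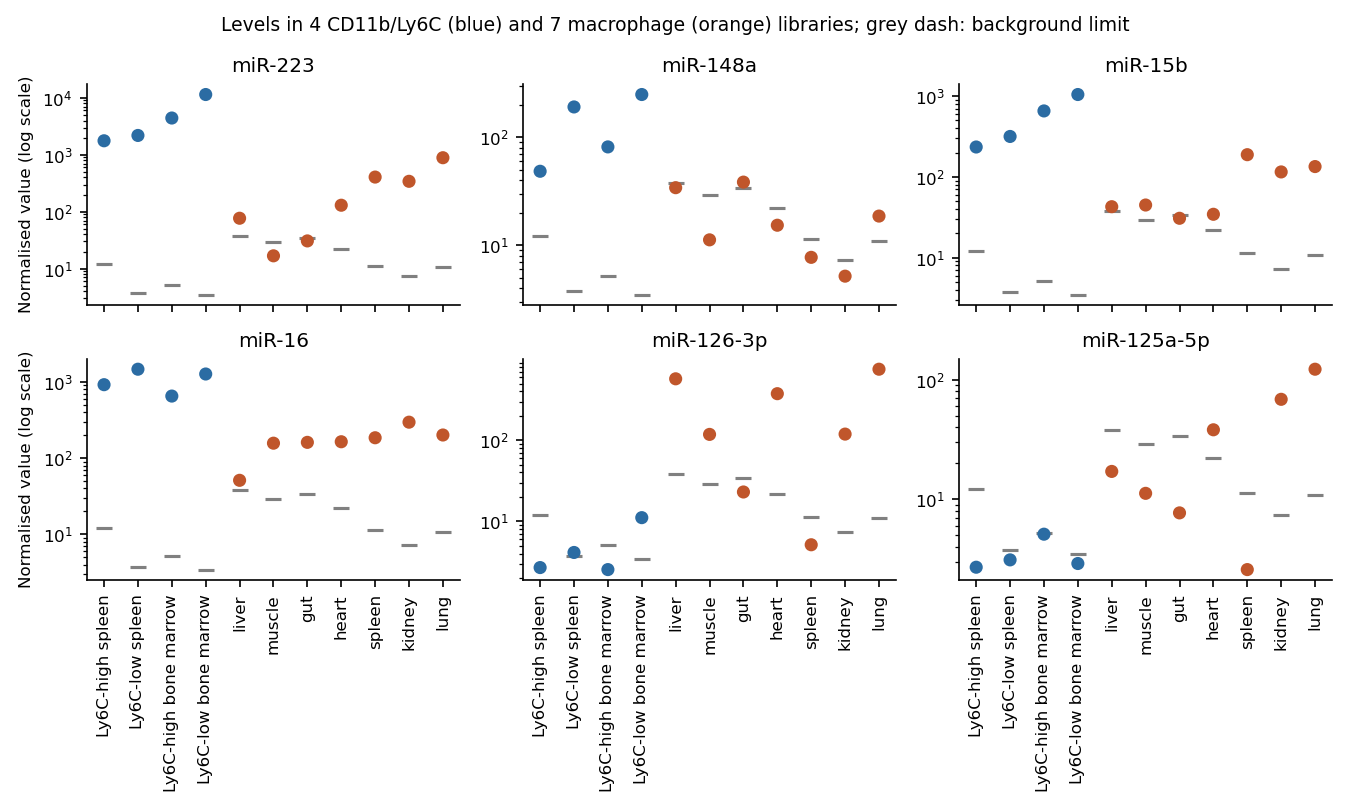
Normalised value (log axis) of 6 miRNAs in each library, CD11b/Ly6C cells in blue and macrophages in orange, each side ordered by depth, with a grey dash at the library's background limit. miR-223, miR-148a, miR-15b and miR-16 separate the sides, while miR-126-3p reaches 751 in lung macrophages but lies under its limit in gut and spleen macrophages, and miR-125a-5p is above its limit in kidney, lung and heart macrophages only.

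Other miRNAs of the monocyte and granulocyte list were lower as well. Of the 10 in the table, 9 were tested, of which 5 were lower in macrophages (miR-223, miR-142-3p, miR-148a, miR-340-5p and miR-27a), 0 were higher and 4 were not called; over all tested 12.9% were lower and 34.1% higher. The list's median log2 difference was -1.33, against 0.66 over all tested. The summed values of the list were 358 to 1639 in macrophages and 2389 to 12960 in CD11b/Ly6C cells. These sums and the count of 5 include miR-223, at 16.8 to 888 in macrophages and 1762 to 11442 in CD11b/Ly6C cells. The gap between the sums is therefore largely that of miR-223 and does not show a separation by the other members.

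miR-148a, known from B cells and dendritic cells as a regulator of activation, was the other call kept in every setting in which it was tested (29 of 29). Its values were 191 in Ly6C-low spleen, 249 in Ly6C-low bone marrow, 48.4 in Ly6C-high spleen and 81.4 in Ly6C-high bone marrow. In macrophages they ran from 5.16 (kidney) to 38.4 (gut) with a median of 15.3. The sides did not overlap, both Ly6C-low libraries were above both Ly6C-high libraries, and only 2 of 7 macrophage libraries (lung and gut) were above their background limits. The log2 difference was -2.29 ± 0.40 (limma, adjusted p = 1.7e-05), and it was -2.63 in the deeper libraries and -2.33 with depth as a covariate.

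miR-142-3p, a miRNA of blood cells, was at 7.68 (gut) to 87.4 (spleen) in macrophages with a median of 15.3. In CD11b/Ly6C cells it was at 326 in Ly6C-low spleen, 423 in Ly6C-low bone marrow, 88.8 in Ly6C-high spleen and 112 in Ly6C-high bone marrow. Spleen macrophages, at 87.4, were next to Ly6C-high spleen, at 88.8, so that the sides only just failed to overlap. The log2 difference was -2.55 ± 0.59 (limma, adjusted p = 0.00144), and the call was lost in the deeper libraries (-1.74, adjusted p = 0.0767) and with depth as a covariate (-1.09, adjusted p = 0.285). The opposite arm of the same hairpin, miR-142-5p, did not move with it: its difference was 1.07 ± 0.54 (limma, adjusted p = 0.0818), and its counts were 17 to 49 in all 11 libraries. miR-340-5p was at 13.8 to 69.4 in macrophages and 43.0 to 318 in CD11b/Ly6C cells, with only spleen macrophages inside the CD11b/Ly6C range (-1.93 ± 0.49, limma, adjusted p = 0.0027). Its difference with depth as a covariate was -1.11 (adjusted p = 0.26). In the deeper libraries miR-340-5p kept its call (-2.02, limma, adjusted p = 0.0470). miR-27a, a partner of miR-23a and miR-24, was at 7.68 to 144 and 53.8 to 197, with lung and kidney macrophages inside the CD11b/Ly6C range (-1.33 ± 0.49, limma, adjusted p = 0.0279). miR-27a lost its call in 11 of 30 settings, and with depth as a covariate its difference was -0.70 (adjusted p = 0.458).

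The miR-15/16 family restrains cell cycle and survival genes such as Bcl2. Of 6 members with a probe, 4 were tested, and 3 were lower in macrophages (miR-15a, miR-15b and miR-16), where 12.9% of all tested were lower, with a list median of -2.56 against 0.66 over all tested. miR-16 was at 296 in kidney, 201 in lung, 157 in muscle, 51.2 in liver, 164 in heart, 161 in gut and 185 in spleen macrophages. In CD11b/Ly6C cells it was at 1464 in Ly6C-low spleen, 1267 in Ly6C-low bone marrow, 918 in Ly6C-high spleen and 651 in Ly6C-high bone marrow. No macrophage library came near the lowest CD11b/Ly6C library, and all 7 were above their own background limits. The means were 174 ± 72.3 (SD, n = 7) and 1075 ± 362 (SD, n = 4), and the log2 difference was -2.62 ± 0.65 (SE, limma, adjusted p = 0.00229).

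miR-15b was at 30.7 (gut) to 188 (spleen) in macrophages with a median of 44.8, and at 316, 1044, 234 and 654 in CD11b/Ly6C cells, in the order of populations given for miR-16. miR-15a was at 16.8 (muscle) to 172 (spleen) with a median of 42.7, and at 269, 648, 379 and 473. For both, spleen, kidney and lung macrophages formed the upper part of the macrophage range without reaching the CD11b/Ly6C cells. The log2 differences were -2.63 ± 0.56 for miR-15b and -2.49 ± 0.59 for miR-15a (limma, adjusted p = 0.000564 and 0.00173). With depth as a covariate miR-15b kept its call (-1.90, adjusted p = 0.0291), while miR-16 and miR-15a did not (-1.65 and -1.52, adjusted p = 0.121 and 0.138). In the deeper libraries it was miR-16 that kept its call (-2.03, limma, adjusted p = 0.0383). There miR-15b and miR-15a did not (-1.85 and -1.34, limma, adjusted p = 0.0608 and 0.111). The fourth tested member, miR-322, differed by -0.42 ± 0.39 (adjusted p = 0.329).

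The miR-17-92 cluster and its paralogues, which promote proliferation of blood progenitors, gave 6 lower calls among 7 tested probes, of 11 in the table, where 12.9% of all tested were lower. Every tested difference was negative and the list median was -1.45, against 0.66 over all tested. miR-25 was at 30.7 (gut) to 154 (spleen) in macrophages with a median of 72.6, and at 230 in Ly6C-low spleen, 633 in Ly6C-low bone marrow, 280 in Ly6C-high spleen and 449 in Ly6C-high bone marrow. The sides did not overlap, and bone marrow was above spleen in both Ly6C classes (-2.24 ± 0.53, limma, adjusted p = 0.00173). miR-19a was at 5.60 (muscle) to 25.6 (liver), and at 64.0, 116, 59.2 and 114 in the same order, again without overlap and with bone marrow highest (-2.0 ± 0.43, limma, adjusted p = 0.000657).

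The probe shared by miR-20a and miR-20b, which cannot separate them, was at 26.8 (heart) to 326 (lung) in macrophages and at 149, 795, 188 and 894 in CD11b/Ly6C cells. Spleen macrophages, at 190, and lung macrophages lay inside the range of the CD11b/Ly6C cells, while the other 5 organs lay under all 4 CD11b/Ly6C libraries and bone marrow lay above all 7 organs (-2.05 ± 0.64, limma, adjusted p = 0.0117). The other 3 calls were the shared probe of miR-106a and miR-17 (-1.45 ± 0.44), miR-93 (-1.18 ± 0.35) and miR-106b (-1.0 ± 0.36), with adjusted p of 0.0103, 0.00894 and 0.0272 (limma). miR-93 and miR-106b were each above the background limit in 1 macrophage library. miR-19b, at 5.59 to 33.6 and 13.4 to 25.8, was not called (-0.34 ± 0.38, adjusted p = 0.416), although it is made with miR-19a from the same cluster. None of the 6 calls was kept with depth as a covariate (differences from -1.44 to -0.59, limma, adjusted p from 0.0917 to 0.458). In the deeper libraries miR-19a and miR-106b kept their calls (-1.91 and -1.53, limma, adjusted p = 0.0137 and 0.0237), and the others did not.

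The remaining lower calls were let-7i, miR-10a and miR-425. let-7i, of the let-7 family that restrains growth genes, was at 23.0 to 165 in macrophages and 78.4 to 352 in CD11b/Ly6C cells (-1.34 ± 0.56, limma, adjusted p = 0.0452) and lost its call in 19 of 30 settings. miR-10a, from a Hox cluster, was at 3.82 to 33.6 and 29.6 to 101 (-1.06 ± 0.39, adjusted p = 0.0272). For both, the ranges of the 2 sides overlapped. miR-425 was at 3.73 to 8.53 in macrophages, under the background limit in all 7, and at 14.4 to 25.4 in CD11b/Ly6C cells (-0.92 ± 0.35, adjusted p = 0.029). With depth as a covariate none of the 3 was called, at -0.64 for let-7i, -1.17 for miR-10a and -0.75 for miR-425 (limma, adjusted p = 0.567, 0.121 and 0.285).

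**Figure D3:**
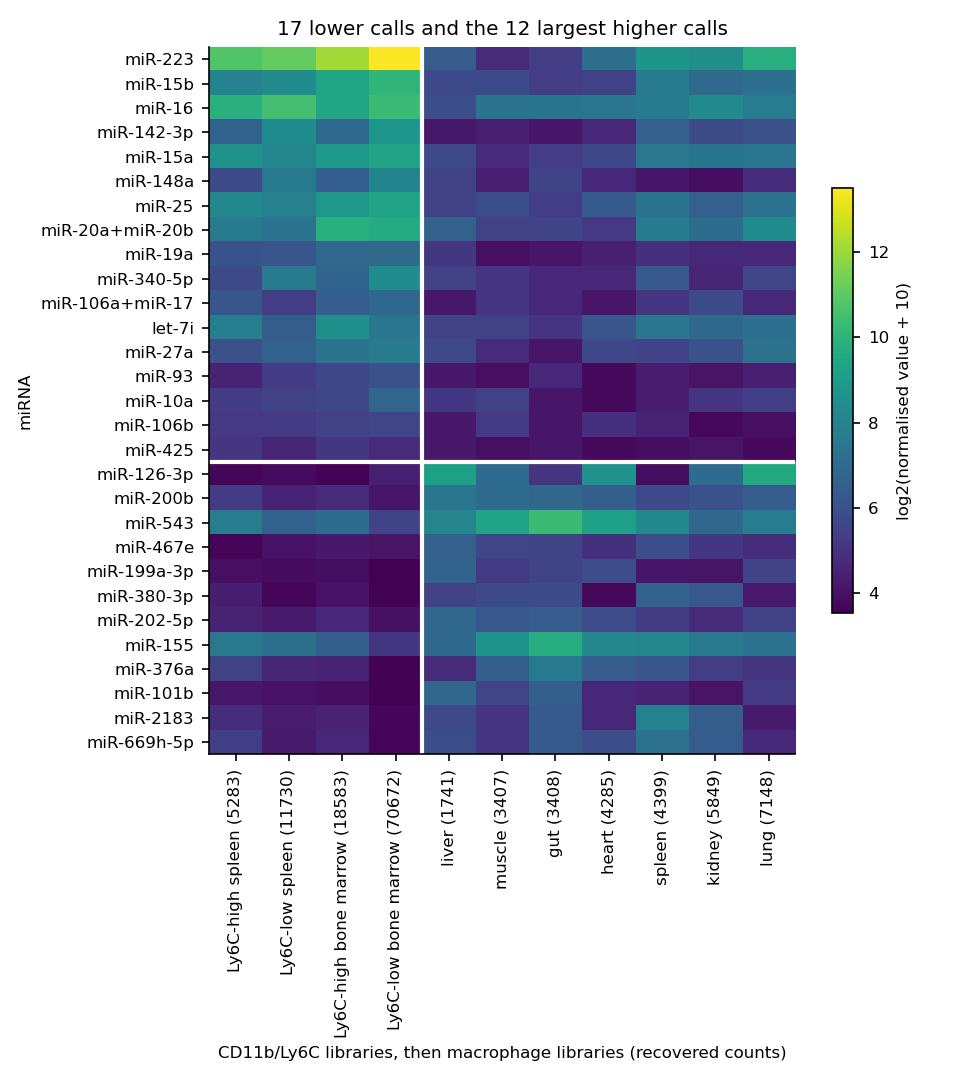
Colour gives log2(normalised value + 10) for the 17 lower calls (above the white line) and the 12 higher calls with the largest differences (below it), with libraries ordered by side and then by recovered counts, which stand in brackets. In the upper block the CD11b/Ly6C libraries on the left are brighter and spleen, kidney and lung macrophages come next, while in the lower block the deepest library, Ly6C-low bone marrow with 70672 counts, is among the darkest.

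On the other side, miR-126-3p had the largest positive difference. Its values in macrophages were 119 in kidney, 751 in lung, 118 in muscle, 572 in liver, 375 in heart, 23.0 in gut and 5.14 in spleen. In CD11b/Ly6C cells they were 4.13 in Ly6C-low spleen, 11.1 in Ly6C-low bone marrow, 2.69 in Ly6C-high spleen and 2.54 in Ly6C-high bone marrow. The sides overlapped through spleen macrophages, whose 2 counts were background, and 6 of 7 organs lay above all CD11b/Ly6C cells. Gut macrophages, with 3 counts, were also under their background limit. The log2 difference was 3.30 ± 0.56 (SE, limma, adjusted p = 1.4e-05), and it was 4.41 in the deeper libraries and 3.23 with depth as a covariate (adjusted p = 2.5e-07 and 0.00137). The call held in 29 of 30 settings. The exception raised every value under 38.0, the highest background limit of the 11 libraries, to that value, and left a difference of 1.92 (limma, adjusted p = 0.0503). In the 4 lymphocyte libraries miR-126-3p was at 0.730 to 1.81, and in the 7 microglia libraries at 0.870 to 7.57.

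The other arm of the hairpin, miR-126-5p, was too low to be tested, with 48.5 in lung, 38.2 in heart, 34.1 in liver and 16.8 in muscle macrophages and 1.72 to 7.68 in the other 3 organs. The 34.1 of liver came from 4 counts and was under the background limit of that library, so only lung and heart can be ranked for this arm. The 2 miRNAs of the endothelial list summed to 7.71 to 800 in macrophages, highest in lung, and to 3.81 to 12.4 in CD11b/Ly6C cells. On the gene panel, measured in samples of like name, Eng, a gene of endothelium that some macrophages also express, was at 1177 in liver, 805 in heart, 309 in lung, 104 in kidney, 93.0 in gut, 88.2 in spleen and 81.5 in muscle macrophages. It was at 5.22 to 36.6 in the 4 Ly6C populations. Cd34, a gene of endothelium and progenitors, was at 455 in heart, 298 in muscle, 163 in gut, 110 in lung, 97.9 in liver, 93.3 in spleen and 28.1 in kidney, against 1.96 to 36.6. The 3 organs with the highest miR-126-3p were the 3 with the highest Eng, while the order of Cd34 was another one. These genes were singled out after their values were seen, and the part of endothelial cells in the miR-126-3p difference was not tested.

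The miR-99 and miR-125 family, whose members miR-125a and miR-125b act in blood stem cells and in innate signalling, had 3 higher calls among 4 tested members, of 6 in the table, where 34.1% of all tested were higher. The list median was 1.23 against 0.66 over all tested. miR-125a-5p was at 68.8 in kidney, 123 in lung, 11.2 in muscle, 17.1 in liver, 38.2 in heart, 7.68 in gut and 2.57 in spleen macrophages, and at 2.69 to 5.09 in CD11b/Ly6C cells. Only kidney, lung and heart were above their background limits, and those 3 libraries held 40, 66 and 10 counts against 1 to 7 in CD11b/Ly6C cells. The difference was 1.38 ± 0.45 (SE, limma, adjusted p = 0.0144), 2.93 in the deeper libraries and 1.88 with depth as a covariate (adjusted p = 4.1e-05 and 0.0229).

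miR-125b-5p was at 119 in kidney, 11.2 in lung, 44.8 in muscle, 42.7 in liver, 80.3 in heart, 23.0 in gut and 38.6 in spleen macrophages, and at 3.71 to 21.5 in CD11b/Ly6C cells. Kidney was highest and lung lowest, so the paired miRNAs, which share a seed, had different orders over the organs. In microglia miR-125a-5p was at 12.8 to 60.8 and miR-125b-5p at 76.7 to 997, and in lymphocytes at 2.68 to 21.1 and 0.830 to 5.44. The difference of miR-125b-5p was 1.38 ± 0.53 (limma, adjusted p = 0.0311), with 1.99 and an adjusted p of 0.0291 with depth as a covariate. It lost its call in 15 of 30 settings, and with edgeR on recovered counts the adjusted p was 0.0948. miR-100 was called at 1.07 ± 0.39 (limma, adjusted p = 0.0272) from 1 to 12 counts in macrophages and lost its call with depth as a covariate (0.59, adjusted p = 0.458), and miR-99a was not called (0.65 ± 0.42, adjusted p = 0.165). miR-126-3p, miR-125a-5p and miR-125b-5p were the only 3 of the 45 higher calls kept with depth as a covariate.

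miRNAs typical of other tissue cells had few counts. miR-199a-3p, a miRNA of stromal cells, was the single tested member of 10 on its list and was higher in all 7 macrophage libraries, at 6.88 (kidney) to 93.9 (liver) against 1.65 to 5.38 (1.51 ± 0.38, limma, adjusted p = 0.00249). It rested on 3 to 20 counts and was above the background limit in 4 macrophage libraries. The stromal list summed to 41.1 to 191 in macrophages and 13.2 to 35.0 in CD11b/Ly6C cells. The mean of the viral probes was 3.18 to 17.1 in macrophage libraries and 1.54 to 5.54 in CD11b/Ly6C libraries. A sum over several low probes therefore holds much background. miR-122, which marks hepatocytes, was highest in liver macrophages at 51.2, from 6 counts, and at 1.03 to 5.38 in CD11b/Ly6C cells (1.02 ± 0.36, adjusted p = 0.0223). It was above the background limit in liver macrophages only. miR-204, of kidney and other epithelium, was at 8.60 to 30.7 and 1.24 to 8.07 (1.00 ± 0.33, adjusted p = 0.0166), highest in gut, and its list of 5 summed to 24.1 to 138 and 21.0 to 45.7. With depth as a covariate none of these 3 was called, at 1.07 for miR-199a-3p, 0.46 for miR-122 and 0.66 for miR-204 (limma, adjusted p = 0.138, 0.46 and 0.292). In the deeper libraries miR-199a-3p kept its call (1.01, limma, adjusted p = 0.0383). There miR-122 and miR-204 did not (0.06 and 0.49, limma, adjusted p = 0.917 and 0.226).

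Of the epithelial list of 10, 4 were tested and 2 called higher, miR-200b and miR-205, beside 34.1% of all tested. miR-200b was at 43.7 (spleen) to 162 (liver) in macrophages and 7.42 to 29.6 in CD11b/Ly6C cells, without overlap (1.90 ± 0.51, limma, adjusted p = 0.00397). Its counts were 14 to 41 in macrophages and 11 to 18 in CD11b/Ly6C cells. High values were not particular to organ macrophages: it was at 11.4 to 265 in microglia, 141 in neutrophils and 71.3 in dendritic cells. In lymphocytes it was at 10.2 to 25.7. miR-205 differed by 0.93 ± 0.39 (adjusted p = 0.0435) with 3 to 19 counts over the 11 libraries, and by 0.11 with depth as a covariate (adjusted p = 0.855). The list summed to 845 to 12196 in macrophages and 209 to 1991 in CD11b/Ly6C cells, with miR-34c as its largest member at 555 to 11874 and 178 to 1892. miR-34c took 4.38% to 46.4% of mouse miRNA counts in macrophages and 0.790% to 15.0% in CD11b/Ly6C cells. In microglia of the cerebellum it took 51.1%, and in those of the brain 4.62%. The erythroid and platelet list had 1 tested member of 3, miR-451, which was not called, and summed to 25.6 to 76.4 and 24.2 to 118. The muscle and heart list had 2 tested of 7 and 0 called, and summed to 14.9 to 157, highest in muscle, and 8.24 to 53.8. Like the stromal sum, these sums hold the background of each probe. The nervous system list had 1 tested of 5 and 0 called. What these cells contributed to the differences was not tested.

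Regulators of inflammation gave 1 call, miR-155, which is induced by innate signals and favours inflammatory output. Of 7 with a probe, 3 were tested, and miR-146a and miR-132 were not called, so that the share called higher was close to the 34.1% over all tested. miR-155 was at 177 in kidney, 145 in lung, 386 in muscle, 111 in liver, 271 in heart, 837 in gut and 265 in spleen macrophages. In CD11b/Ly6C cells it was at 137 in Ly6C-low spleen, 25.6 in Ly6C-low bone marrow, 172 in Ly6C-high spleen and 82.7 in Ly6C-high bone marrow. The sides overlapped, and 5 of 7 organs were above all CD11b/Ly6C cells (1.45 ± 0.62, limma, adjusted p = 0.0473). In recovered counts the order was another one: 13 to 109 in macrophages and 62 to 133 in CD11b/Ly6C cells. The call was lost in 21 of 30 settings, with a difference of 0.32 with depth as a covariate (adjusted p = 0.795). miR-146a, which limits the same signals, was at 16.8 to 170, highest in kidney, and at 3.81 to 38.2 (1.25 ± 0.56, adjusted p = 0.0567). miR-146a was called with depth as a covariate, at 2.09 (limma, adjusted p = 0.0291).

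Several higher calls came from probes whose counts ranged less between libraries than the totals did, a set singled out after the values were seen. miR-543 was at 107 (kidney) to 1266 (gut) with a median of 278 in macrophages and at 38.3 to 202 in CD11b/Ly6C cells (1.79 ± 0.66, limma, adjusted p = 0.0279). Its counts were 30 to 165 in macrophages and 75 to 97 in CD11b/Ly6C cells, a 5.50-fold range over libraries whose totals ranged 40.6-fold. miR-202-5p had 10 to 18 counts in macrophages and 5 to 14 in CD11b/Ly6C cells, and was called at 1.49 ± 0.42 (adjusted p = 0.00674). By contrast miR-16 ranged from 6 to 3075 counts and miR-223 from 3 to 27760. With depth as a covariate miR-543, miR-202-5p and miR-200b differed by 0.35, 0.66 and 0.65 (limma, adjusted p = 0.777, 0.412 and 0.458). In the deeper libraries miR-200b kept its call (1.55, limma, adjusted p = 0.0383), and it did so in 28 of 30 settings. miR-543 and miR-202-5p lost theirs in the deeper libraries (0.56 and 0.74, limma, adjusted p = 0.628 and 0.224).

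**Figure D4:**
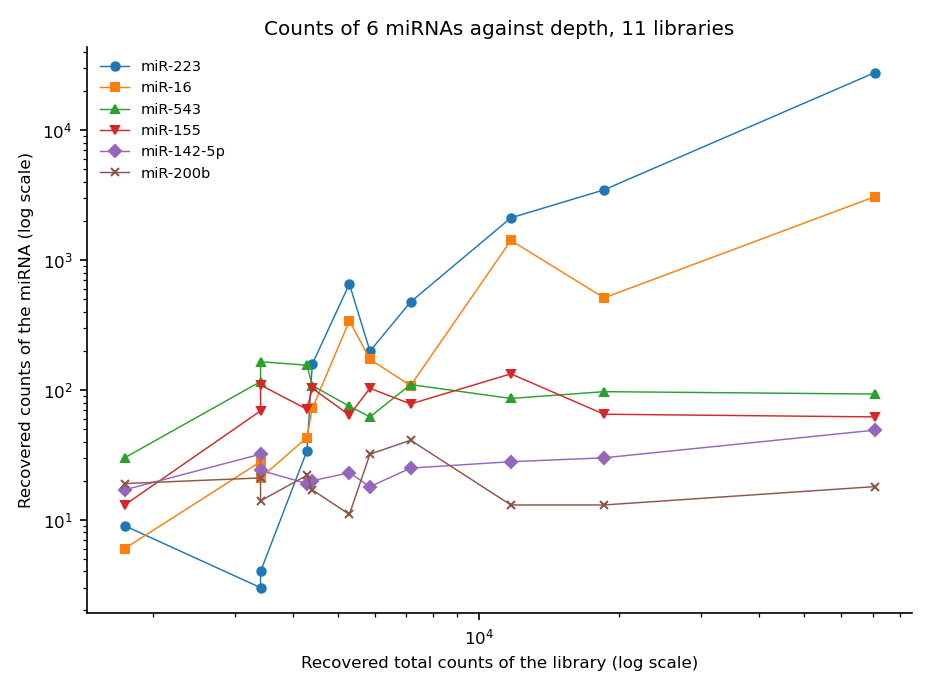
Recovered counts of 6 miRNAs (vertical log axis) against the total of the library (horizontal log axis) in the 11 libraries, with lines joining the libraries of 1 miRNA in order of depth. miR-223 and miR-16 climb from 3 and 6 counts to 27760 and 3075, whereas miR-142-5p (17 to 49), miR-200b (11 to 41), miR-155 (13 to 133) and miR-543 (30 to 165) stay in narrow bands.

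The common floor, the deeper libraries, the depth covariate and edgeR each removed a larger share of the higher calls than of the lower ones. The covariate removed most of both, 42 of 45 higher and 14 of 17 lower calls. Raising values to each library's own background limit went the other way, with 0 of 45 higher and 4 of 17 lower calls lost. When all values under 38.0 were raised to 38.0, so that no library could differ below the background of the shallowest, limma called 9 lower miRNAs (6.82%) and 0 higher ones, while 8 positive differences had an unadjusted p under 0.05. edgeR, run on the recovered counts without this floor, called 61 (46.2%), 32 higher and 29 lower (24.2% and 22.0%), including all 17 lower calls and 30 of the 45 higher ones. The 9 lower calls kept at the common floor were miR-223, miR-15b, miR-16, miR-142-3p, miR-15a, miR-148a, miR-25, miR-19a and miR-340-5p. Among the 6 libraries of 5000 counts or more, kidney and lung macrophages and the 4 CD11b/Ly6C populations, 8 were higher (6.06%) and 7 lower (5.30%). With depth as a covariate 4 were higher (3.03%) and 3 lower (2.27%), the higher ones being miR-146a, miR-126-3p, miR-125b-5p and miR-125a-5p and the lower ones miR-223, miR-15b and miR-148a. In that fit the sides share depths only between 5283 and 7148 counts, so depth and side are only partly separable. Its slope is shared by all 22 libraries, and the adjusted differences assume that the depth trend of microglia and lymphocytes also holds for the 2 sides.

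**Figure D5:**
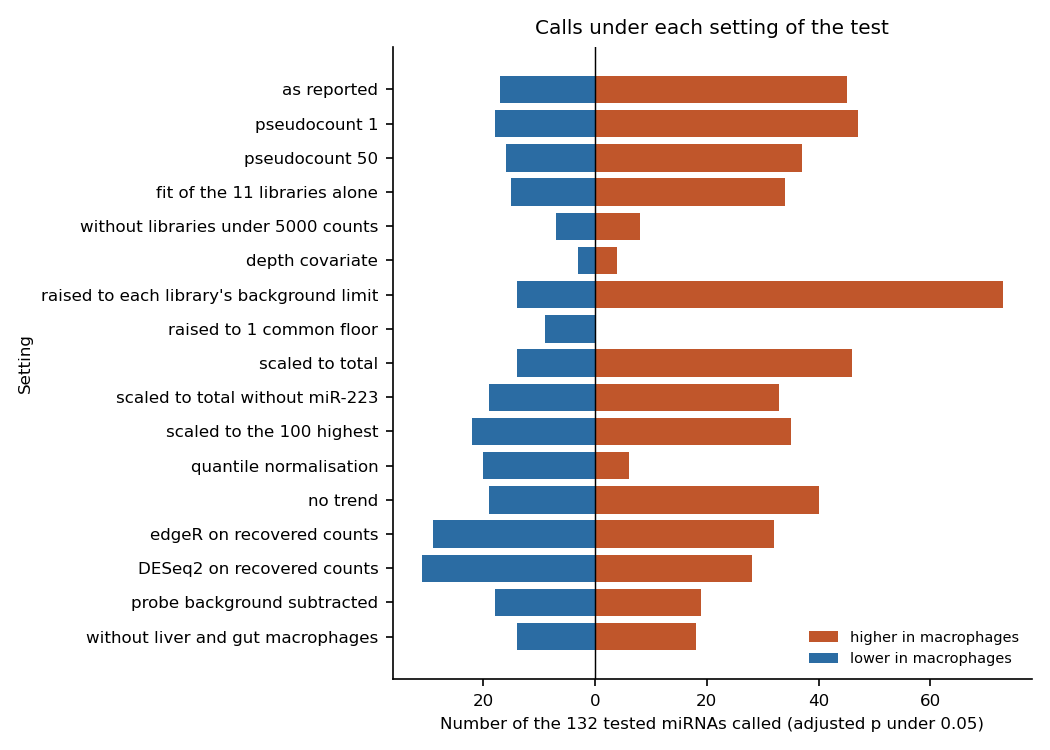
Number of the 132 tested miRNAs called higher (orange, to the right) and lower (blue, to the left) in macrophages under each setting of the test, with the result as reported at the top; settings that test another number of miRNAs or leave out 1 library are not drawn. Among the settings drawn the higher calls range from 0 with a common floor to 73 with each library's own background limit, and the lower calls from 3 with depth as a covariate to 31 with DESeq2.

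Scaling changed the split of the calls. As deposited, 72.6% of the calls were higher in macrophages. Scaled to the library total the split was 46 higher and 14 lower (76.7% higher). Scaled to the total without miR-223 the split was 33 higher and 19 lower, scaled to the 100 highest miRNAs it was 35 and 22, and after quantile normalisation it was 6 and 20. DESeq2 on recovered counts called 28 higher and 31 lower. None of the 34 named miRNAs changed sign in any setting, although at the common floor those under 38.0 in every library had no difference left.

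The groups could also be compared without a model. Of the 132 miRNAs, 9 lay wholly above (6.82%) and 10 wholly below (7.58%) in macrophages. The 10 below were miR-223, miR-15a, miR-15b, miR-16, miR-142-3p, miR-148a, miR-19a, miR-25, miR-191 and miR-425, of which only miR-191 was not called. miR-191 was at 5.60 to 15.4 in macrophages and 15.5 to 45.8 in CD11b/Ly6C cells (-0.85 ± 0.39, limma, adjusted p = 0.0644). In recovered counts 16 lay wholly below (12.1%) and 0 wholly above. At the common floor 8 lay wholly below (6.06%) and 1, miR-200b, wholly above (0.758%).

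The spleen offered a pair of near-equal depth, macrophages with 4399 counts and Ly6C-high cells with 5283, though with 1 library each there is no replicate check. Of the 17 lower calls 15 (88.2%) were also lower in spleen macrophages than in Ly6C-high spleen, where 43.9% of all 132 tested were higher. The exceptions were miR-20a/20b (190 against 188) and miR-340-5p (69.4 against 43.0). In recovered counts 14 were lower, as miR-142-3p (87.4 against 88.8) had 34 counts against 33. miR-223 was at 406 against 1762 and miR-16 at 185 against 918, while miR-15b was at 188 against 234. Of the 45 higher calls 32 (71.1%) were higher in spleen macrophages, as were 43.9% of all 132 tested and 15.2% of the viral probes. Both libraries are among the 11 that gave the calls, so these counts describe the pair and are no separate support. Among the higher calls miR-2183 had 89 counts against 7, miR-669h-5p 56 against 12, miR-380-3p 36 against 4 and miR-467e 20 against 1. miR-126-3p, in contrast, had 2 counts against 1. Against the deeper Ly6C-low spleen library 41 of 45 (91.1%) were higher in spleen macrophages. So were 57.6% of all 132 tested and 87.9% of the viral probes.

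In the other families each count stands beside the 12.9% of all tested that were lower and the 34.1% that were higher. Of 8 tested let-7 members let-7i was lower and 7 were not called (list median 0.22). None of 3 tested miR-29 members (median -0.74) and none of 3 tested miR-30 members (median 0.19) passed. Of 3 tested members of miR-23/24/27 only miR-27a was lower (median -1.06). Of 5 tested miRNAs of the lymphocyte list only miR-10a was lower (median 0.40). In the lymphocyte libraries themselves miR-10a was at 7.44 to 25.4, under the 29.6 to 101 of CD11b/Ly6C cells. miR-150, the lymphocyte marker, was at 7.68 to 160 in macrophages, highest in lung, and at 8.07 to 39.6 in CD11b/Ly6C cells.

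The identity of the populations could be read on the gene panel, in samples of like name and with no test; its spleen macrophages are labelled as red pulp macrophages. C1qa, a complement gene of resident macrophages, was at 217 (spleen) to 1400 (heart) in organ macrophages and at 7.18 to 49.0 in the 4 Ly6C populations. Csf1r, the receptor for the macrophage growth factor, was present on both sides, at 328 to 1015 and 183 to 1565. Csf3r, the receptor for the granulocyte growth factor, was at 2626 in Ly6C-low spleen, 1319 in Ly6C-low bone marrow, 280 in Ly6C-high spleen and 191 in Ly6C-high bone marrow, against 17.6 to 190 in macrophages. Fcnb, a gene of bone marrow myeloid precursors, was at 1172 in Ly6C-low and 499 in Ly6C-high bone marrow and at 49.0 and 15.7 in the spleen. Cx3cr1, which is high in patrolling monocytes, was at 11.1 in Ly6C-low bone marrow, the lowest of the 11, and at 677 in Ly6C-high spleen, the highest. High Csf3r and low Cx3cr1 in Ly6C-low bone marrow go against the name of monocytes for that population, and all 4 are called by their sort here. What granulocytes contributed to the miR-223 of the Ly6C-low libraries was not tested.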

How the data were processed

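The authors deposited the miRNA values as a normalised signal: barcode counts times 1 factor per library. The basis of that factor, the handling of background and the counting software stay without a description (not given in the sources used here). Per the labels' protocols, RNA came from the mirVana kit. All values of the libraries used (100%) were whole multiples of 1 step within 0.1 count, so counts were recovered. The gene panel is likewise a signal the authors deposited after scaling.

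Libraries were grouped by their labels. The 11 libraries were tested inside 1 limma fit (version 3.58.1, R 4.3.3, lmFit and eBayes with a trend) of the 22 numbered libraries of replicated groups, on log2(value + 10), for miRNAs above 20 in at least 4 libraries, with Benjamini-Hochberg adjustment over 132 miRNAs. edgeR 4.0.16 (quasi-likelihood) on recovered counts called 61 and DESeq2 1.42.0 called 59. The limma step was tested on simulated data. Chi-square tests separated every pair of libraries within a side, so none was counted as a duplicate.

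Named miRNAs are miR-223, miR-126-3p, the 12 largest calls in each direction and called members of 18 lists. The members and lists were chosen with earlier results of these data known. The 30 alternatives varied the pseudocount, minimum, libraries, depth, background, scaling and test, and left out each library in turn. Of these, 2 were chosen after seeing the data: subtracting each probe's lowest count, and leaving out liver and gut macrophages. The neural-set miRNA libraries and the arrays were not used here.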

Additional observations from a re-analysis of the deposited data

Results flagged for a closer look

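For the 34 named miRNAs and the total counts, 70 groups of values on the log2 scale over both sides, the highest or lowest library was compared with its nearest neighbour by Dixon's test, which marks about 1 in 20 groups by chance, and 2 stood apart. miR-16 was at 51.2 in liver macrophages, from 6 counts in the shallowest library, while the nearest of the other macrophages was at 157. miR-122 was at 5.38 in Ly6C-high spleen, from 2 counts, while the nearest of the other CD11b/Ly6C libraries was at 1.27.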

How the results depend on the processing

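Over the 34 named miRNAs and 30 alternatives, 778 of 995 differences kept their side of the threshold, 217 lost it and 0 changed sign. miR-223 and miR-148a kept their calls in every alternative in which they were tested. Of the 17 lower calls 9 were lost in at most 2 alternatives, and of the 45 higher calls 4 were, with 22 lost in 10 or more. With other sets of miRNAs tested, the 62 calls (45 higher, 17 lower) became 189 (173 and 16) with no minimum and 10 (3 and 7) of 34 with a minimum of 100. With the minimum applied to the 11 libraries, also another set, they became 41 (26 higher) of 85. They became 15 (8 and 7) without libraries under 5000 counts, which leaves fewer samples, 7 (4 and 3) with depth as a covariate and 9 (0 and 9) with values raised to 1 common floor. A fit of the 11 libraries alone gave 49 (34 higher and 15 lower), and let-7i and miR-10a lost their calls. Quantile normalisation gave 26 (6 higher) and subtracting each probe's lowest count 37 (19 higher). Without liver and gut macrophages 32 (18 higher) were called, raising values to each library's own limit gave 73 higher, edgeR gave 29 lower, and DESeq2 gave 28 higher and 31 lower. The cause of these shifts was not tested. Leaving out 1 library gave 22 to 75 calls, 13 to 55 higher and 9 to 20 lower. Without Ly6C-low bone marrow there were 22, without Ly6C-high bone marrow 32, without Ly6C-low spleen 38 and without gut macrophages 39, and without muscle macrophages the higher calls were 28. The 19 of 132 miRNAs whose sides did not overlap became 48 of 566 with no minimum and 7 of 34 with a minimum of 100. Without libraries under 5000 counts there were 38 of 132. That setting leaves only kidney and lung macrophages on 1 side, where non-overlap arises more easily, so the 38 does not show stronger separation. There were 12 at each library's limit and 9 at the common floor, and 19 to 39 when 1 library was left out (39 without Ly6C-high spleen). The depth difference was -2.64 to -1.40 when 1 library was left out, with exact permutation p of 0.00833 to 0.025. Depth limits what can be said of miRNAs under 38.0, where liver macrophages had 4 counts or fewer. No paired analysis was possible because the labels of the 2 sides carry no shared replicate numbers.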
